A study of Mus musculus with 4 samples.

Results

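The genes of the SMC complexes, of cohesin and of Ki-67 were examined in mouse ID8 ovarian cancer cells after knockdown of the deubiquitylase USP9X. They were taken by symbol from the deposited table, which gave 10 genes of the 22063 listed, namely Smc1a, Smc2, Smc3, Smc4, Smc5, Smc6, Rad21, Stag2, Nipbl and Mki67, and all 10 were among the 11448 genes with enough counts to be tested. They had been selected on this same comparison, so their differences between the groups are given as a description, with standard errors and without a test. The 2 shCtrl libraries came from ID8 cells with a control shRNA, which the labels call WT. The 2 shUSP9X libraries came from ID8 cells with an shRNA against USP9X, which the labels call a USP9X knockdown. The study's methods give lentiviral pLKO.1-puro as the shRNA vector and do not state which USP9X shRNA the sequenced cells carried. All cells are of 1 line, and since no source used here states that the libraries of a group came from separate cultures, the p-values measure only the spread between these libraries. The libraries held 17232006 and 15611363 estimated counts for shCtrl and 19978889 and 17021261 for shUSP9X.

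SMC proteins are long ATPases that pair up through their hinges and are closed into a ring by a kleisin subunit. Cohesin (SMC1A, SMC3, RAD21 and a STAG protein) holds sister chromatids together and extrudes chromatin loops, condensin (SMC2 and SMC4) compacts mitotic chromosomes, and the SMC5/6 complex acts in replication and DNA repair. Ki-67 is a very large nuclear protein that coats mitotic chromosomes and is the standard marker of cycling cells.

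The coding sequences of these genes are rich in adenine, and the fold changes described below ran with this feature. To show it, the 120-base stretch of 1 coding exon whose A content lay nearest that of the whole coding sequence is given for Mki67, for the member that fell least, Rad21, and for Ncapd2, a condensin subunit outside the 10 genes. Capitals mark A, the build is GRCm38 and the sequence comes from GENCODE M21.
Mki67, chr7:135708011-135708130, minus strand, exon 6: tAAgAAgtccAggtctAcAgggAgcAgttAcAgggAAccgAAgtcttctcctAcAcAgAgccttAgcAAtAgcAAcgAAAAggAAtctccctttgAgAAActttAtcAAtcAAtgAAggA
Rad21, chr15:51982530-51982649, minus strand, exon 2: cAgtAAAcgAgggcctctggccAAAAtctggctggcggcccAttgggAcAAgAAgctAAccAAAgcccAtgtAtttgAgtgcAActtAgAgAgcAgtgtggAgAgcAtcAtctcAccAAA
Ncapd2, chr6:125186146-125186265, minus strand, exon 5: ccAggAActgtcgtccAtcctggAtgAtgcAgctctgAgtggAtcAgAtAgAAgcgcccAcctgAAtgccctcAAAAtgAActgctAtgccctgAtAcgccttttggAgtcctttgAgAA
A made up 43, 37 and 30 of these 120 bases in that order. Over the whole coding sequences its share was 35.83% in Mki67, 31.08% in Rad21 and 24.69% in Ncapd2.

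The labels were checked first. Usp9x (chromosome X, 13071498 to 13173328) stood at 298 and 282 CPM (counts scaled to library size by TMM) in the shCtrl libraries and at 19.7 and 20.5 in the shUSP9X libraries. This was a log2 fold change of -3.85 ± 0.058 (SE, adjusted p = 4.7e-26, quasi-likelihood test of edgeR). Usp9x stood at -2.68 with trends on GC content and transcript length removed from each library. With those on coding A content and coding length removed it stood at -2.86. Of 8 markers of ovarian surface epithelium and mesothelium, 7 had more than 3 counts in every library, among them Krt8, Krt18, Krt19, Wt1 and Msln, while Krt7 had at most 3 counts. The summed level of these 8 genes was 2408 and 2435 CPM in shCtrl and 2768 and 2716 CPM in shUSP9X, with Krt19 as the most abundant gene. Of the 7 that could be tested, 3 were higher and 3 lower at an adjusted p under 0.05 (edgeR), against 33.8% and 33.6% of all tested genes. With trends on GC content and transcript length removed from each library, 2 were higher and 5 lower, against 32.6% and 30.2% of all genes in that fit. With those on coding A content and coding length removed, 2 were higher and 4 lower, against 35.3% and 28.9%. The keratins Krt8 (0.92, adjusted p = 5.5e-18), Krt18 (0.64, adjusted p = 1.3e-14) and Krt19 (0.12, adjusted p = 0.00274) were higher, the last -0.20 with GC content and length trends removed. Wt1 (-0.52, adjusted p = 4e-12), Msln (-0.47, adjusted p = 1.3e-11) and Lrrn4 (-1.64, adjusted p = 0.00738), the last with 5 to 23 counts, were lower, and Upk3b did not pass (0.05, adjusted p = 0.342). Upk3b was lower with either pair of trends removed (-0.13 in both, adjusted p = 0.00783 and 0.00908).

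Some markers of leukocytes and fibroblasts also moved with the groups. The 5 leukocyte markers summed to 4.27 and 4.30 CPM in shCtrl and to 10.4 and 9.73 CPM in shUSP9X, and Cd68 was the most abundant. Ptprc had 29 and 18 counts and Adgre1 58 and 59 counts in shUSP9X, both with 0 in shCtrl. These 2 genes passed the count filter only through the shUSP9X libraries, so no test or share is read from them. Cd68 did not pass (0.37, adjusted p = 0.125, edgeR). Cd3e was at 0 in all 4 libraries and Lyz2 had at most 2 counts. The 3 endothelial markers summed to at most 1.20 CPM, all of it from Pecam1, with Cdh5 and Kdr at 0. The 5 fibroblast markers summed to 252 and 259 CPM in shCtrl and to 148 and 145 CPM in shUSP9X, most of it Dcn, with Pdgfrb at 0 and Col1a2 at no more than 12 counts. The 3 fibroblast markers that could be tested were all lower in shUSP9X (edgeR), against 33.6% of all tested genes. Col1a1, a collagen chain, went from 67.7 and 78.7 CPM to 22.9 and 21.5 CPM (log2 fold change -1.72 ± 0.082, adjusted p = 4.5e-16). Pdgfra, a growth factor receptor, went from 15.7 and 13.6 CPM to 1.72 and 2.31 CPM (-2.87 ± 0.19, adjusted p = 6.6e-13). Dcn fell less, from 168 and 167 CPM to 123 and 121 CPM (-0.46 ± 0.046, adjusted p = 1.8e-09). Whether any such cells were present, or had a part in the results, was not tested. In bulk RNA, fewer cells of a type and less RNA per cell cannot be told apart.

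All 10 genes were lower in both shUSP9X libraries than in either shCtrl library. How many of all tested genes lay apart in this way was not counted. By a different criterion, an adjusted p under 0.05 (edgeR), 33.6% of the tested genes were lower and 33.8% higher. Nothing is read from the contrast of the 10 genes, since it chose them. The log2 fold changes ran from -0.24 for Rad21 to -4.45 for Mki67, with a median of -2.86, while the median over all tested genes was -0.00051. Apart from Rad21, each of the other 9 genes fell at least 2.27-fold.

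Mki67, which encodes Ki-67 (chromosome 7, 135689784 to 135716361, minus strand, 14 exons), stood at 910 and 840 CPM in shCtrl and at 39.9 and 40.1 CPM in shUSP9X. The shUSP9X libraries lay close together and far below the shCtrl libraries. The log2 fold change was -4.45 ± 0.049 (SE), which is 4.57% of the shCtrl level, and it ranked 14 from the lowest of all 11448 genes. The counts behind these values were 15778 and 13287 in shCtrl and 789 and 676 in shUSP9X.

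The cohesin ring genes fell by unequal amounts. Smc1a (chromosome X, 152016428 to 152062694, 25 exons), which encodes 1 arm of the cohesin ring, stood at 289 and 273 CPM in shCtrl and at 122 and 125 CPM in shUSP9X. Smc3 (chromosome 19, 53600398 to 53645833, 29 exons), its partner, went from 282 and 269 CPM to 39.0 and 38.0 CPM. Rad21 (chromosome 15, 51962240 to 51991747, 14 exons), the kleisin that closes the ring, went from 571 and 557 CPM to 476 and 478 CPM. The log2 fold changes were -1.18 ± 0.044 for Smc1a, -2.84 ± 0.052 for Smc3 and -0.24 ± 0.034 for Rad21. Smc1a thus kept 44.0% of its shCtrl level, Smc3 14.0% and Rad21 84.5%.

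Stag2 (chromosome X, 42149317 to 42277185, 33 exons), which binds RAD21 and helps cohesin onto DNA, stood at 147 and 137 CPM in shCtrl and at 24.3 and 28.0 CPM in shUSP9X. Nipbl (chromosome 15, 8290617 to 8444463, 47 exons), the cohesin loader, went from 196 and 184 CPM to 19.9 and 21.8 CPM. Both genes were low in each shUSP9X library, with log2 fold changes of -2.44 ± 0.067 and -3.19 ± 0.063.

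The condensin pair fell together. Smc2 (chromosome 4, 52439243 to 52488260, 25 exons) stood at 443 and 431 CPM in shCtrl and at 57.5 and 61.1 CPM in shUSP9X. Smc4 (chromosome 3, 69004738 to 69034623, 24 exons) went from 322 and 298 CPM to 28.4 and 31.8 CPM. The log2 fold changes were -2.88 ± 0.046 and -3.37 ± 0.058, and that of Smc4 was the lowest of the 6 SMC genes.

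The SMC5/6 pair had the lowest levels of the 6 SMC genes per length, in FPKM. Smc5 (chromosome 19, 23206451 to 23273897, 24 exons) stood at 103 and 98.3 CPM in shCtrl and at 16.6 and 18.2 CPM in shUSP9X. Smc6 (chromosome 12, 11265886 to 11319785, 27 exons) went from 102 and 101 CPM to 10.6 and 11.2 CPM. The smallest count of any of the 10 genes was 189, for Smc6 in shUSP9X replicate 2. The log2 fold changes were -2.54 ± 0.073 for Smc5 and -3.23 ± 0.078 for Smc6.

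**Figure D1:**
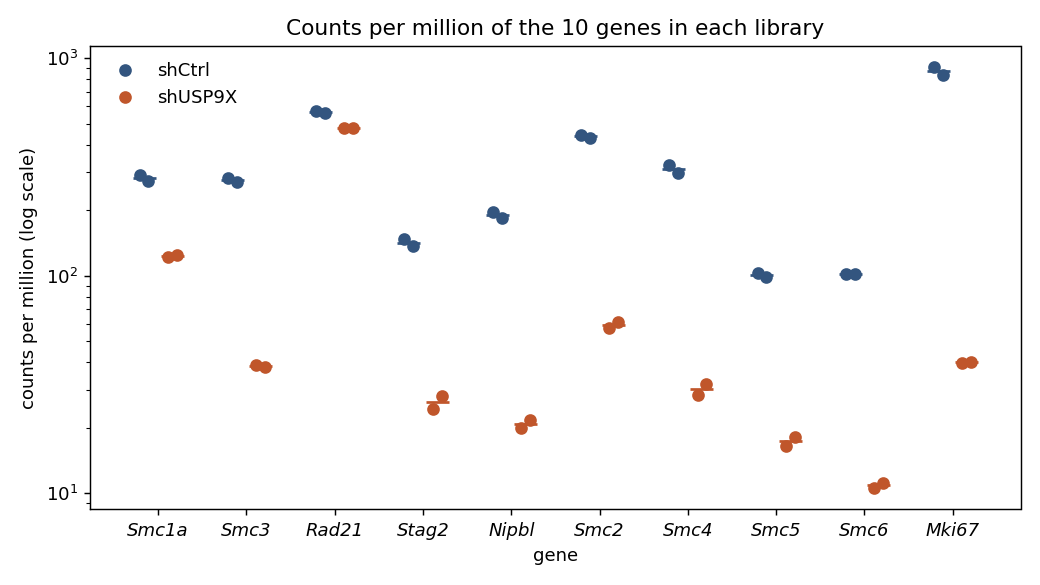
CPM (log axis) of the 10 genes in each of the 4 libraries, with shCtrl in blue and shUSP9X in orange, points for libraries and lines for group means. The distance between the groups is smallest for Rad21 (571 and 557 against 476 and 478 CPM) and largest for Mki67 (910 and 840 against 39.9 and 40.1 CPM).

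The plot of CPM by library shows that the spread between libraries of a group was small beside the distance between the groups. No exon base of the 10 representative transcripts lies in an exon of another annotated gene. The meiotic paralogs Smc1b, Rec8, Rad21l and Stag3 had 0 counts in all 4 libraries, below the floor of 3 counts per library.

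Levels of different genes were compared as FPKM, which the authors scaled for length. In shCtrl, Rad21 had the highest mean (144 ± 1.78, SD, n = 2), followed by Mki67 (89.0 ± 2.84), Smc2 (82.1 ± 1.29), Smc4 (76.5 ± 5.11), Smc1a (68.7 ± 4.42), Smc3 (57.3 ± 1.73), Stag2 (30.4 ± 4.72), Smc6 (23.1 ± 1.54), Smc5 (22.4 ± 0.508) and Nipbl (20.4 ± 0.869). The neighbours Smc2 and Smc4, Smc4 and Smc1a, Stag2 and Smc6, and Smc6 and Smc5 were no further apart in their means than 2 SD of the more variable gene. In shUSP9X the order was Rad21 (120 ± 0.116), Smc1a (28.6 ± 0.0594), Smc2 (10.9 ± 0.504), Smc3 (7.85 ± 0.129), Smc4 (7.33 ± 0.757), Stag2 (5.21 ± 0.726), Smc5 (3.99 ± 0.148), Mki67 (3.94 ± 0.0156), Smc6 (2.39 ± 0.318) and Nipbl (2.19 ± 0.146). Ki-67 mRNA thus moved from the second place to the eighth. There the neighbours Smc3 and Smc4, Stag2 and Smc5, Smc5 and Mki67, and Smc6 and Nipbl lay within 2 SD of each other.

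Because subunits of a ring bind each other in fixed proportions, FPKM ratios within a library were set side by side. Smc1a stood at 1.23 and 1.17 times the FPKM of Smc3 in shCtrl and at 3.59 and 3.69 times in shUSP9X. Rad21 stood at 2.48 and 2.54 times Smc3 in shCtrl and at 15.04 and 15.41 times in shUSP9X. The condensin pair stayed closer, with Smc2 at 1.04 and 1.11 times Smc4 in shCtrl and at 1.55 and 1.43 times in shUSP9X. Smc5 stood at 0.941 and 1.00 times Smc6 in shCtrl and at 1.49 and 1.89 times in shUSP9X. These ratios describe mRNA and not protein. Their genes were selected on this comparison, so nothing is read from a shift of the ratios between the groups.

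Other subunits and regulators of the SMC complexes, called partners here, were tested on the whole table. They are not among the 10 genes, but their list was also drawn up with earlier results of this comparison known, so their counts are not independent evidence of a direction. Of these 26 non-SMC subunits and regulators, 14 were lower and 7 higher in shUSP9X in the edgeR test (adjusted p under 0.05). Their median log2 fold change was -0.27. The corresponding shares of all tested genes were 33.6% and 33.8%. As shares of the 26 partners these were 53.8% and 26.9%. Of the 21 calls, 12 were kept in every alternative fit that tested the gene, and 9 were lost or reversed in at least 1, which were those of Ncapd3, Ncaph2, Nsmce1, Nsmce2, Nsmce4a, Stag1, Wapl, Sgo1 and Espl1.

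In condensin I, Ncapg, a HEAT-repeat subunit, fell from 120 and 119 CPM to 43.0 and 41.9 CPM (log2 fold change -1.49 ± 0.057, adjusted p = 4.5e-18). With coding A content and coding length trends removed it stood at -0.51 (adjusted p = 3.8e-08). The other HEAT-repeat subunit, Ncapd2, rose from 285 and 296 CPM to 335 and 330 CPM (log2 fold change 0.19 ± 0.038, adjusted p = 7.7e-05), and the kleisin Ncaph stood at 117 and 120 against 118 and 118 CPM (adjusted p = 0.916), with 0.36 (adjusted p = 3.5e-07) once coding A content and coding length trends were removed. In condensin II, Ncapg2 fell by 1.42 ± 0.057 on the log2 scale (adjusted p = 1.2e-17) and Ncapd3 by 0.25 ± 0.058 (adjusted p = 0.00042). Ncapd3 did not pass with GC content and length trends removed (-0.03, adjusted p = 0.623). With those on coding A content and coding length removed it turned to 0.18 (adjusted p = 0.00606). The kleisin Ncaph2 was 0.11 ± 0.038 higher on the log2 scale (adjusted p = 0.0105), which turned to -0.12 with GC content and length trends removed. Ncapd2 thus stood at 0.807 and 0.922 times the FPKM of Smc2 in shCtrl and at 8.10 and 7.72 times in shUSP9X, and Ncaph at 0.525 and 0.556 times against 4.10 and 3.85 times. Smc2 was selected on this comparison, so nothing is read from these shifts. With coding A content and coding length trends removed, the log2 fold change was 0.24 for Ncapd2 and -0.88 for Smc2.

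Among the SMC5/6 partners, the genes of the SLF proteins, which bring the complex to damaged DNA, were lower. Slf1 fell from 27.6 and 27.9 CPM to 6.78 and 7.18 CPM (log2 fold change -1.99 ± 0.12, adjusted p = 6.7e-14) and Slf2 from 128 and 136 CPM to 51.0 and 57.8 CPM (-1.28 ± 0.060, adjusted p = 3.2e-16). With coding A content and coding length trends removed, Slf1 stood at -0.63 (adjusted p = 9.9e-05) and Slf2 at -0.27 (adjusted p = 0.00054). Eid3, counted 30 and 25 times in shCtrl and 6 and 8 times in shUSP9X, fell by 2.09 ± 0.49 (adjusted p = 0.00047). The small core subunits moved less. Nsmce1 rose by 0.41 (adjusted p = 2.3e-05) and Nsmce4a by 0.13 (adjusted p = 0.0322), the latter -0.13 with GC content and length trends removed. Nsmce2, the SUMO ligase, fell by 0.29 on the log2 scale (adjusted p = 0.00217). It did not pass with GC content and length trends removed (-0.18, adjusted p = 0.0513). With those on coding A content and coding length removed it turned to 0.19 (adjusted p = 0.0377). Nsmce3 did not pass (0.13, adjusted p = 0.249), though it was higher with GC content and length trends removed (0.54, adjusted p = 1.1e-05).

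Of 13 cohesin regulators, 7 were lower and 3 higher, which is 53.8% and 23.1% of the list against 33.6% and 33.8% of all tested genes. With trends on coding A content and coding length removed, 5 were lower and 5 higher, against 28.9% and 35.3% of all genes in that fit. The acetyltransferases that lock cohesin on chromatin fell furthest, with Esco1 going from 30.0 and 23.5 CPM to 3.24 and 3.21 CPM (log2 fold change -3.05 ± 0.16, adjusted p = 2.1e-15) and Esco2 from 34.4 and 32.2 CPM to 4.65 and 5.22 CPM (-2.76 ± 0.13, adjusted p = 1.7e-16). The release factor Wapl (-1.35), its partners Pds5a (-1.26) and Pds5b (-1.52), Stag1 (-1.03) and the centromere protector Sgo1 (-0.72) fell as well, with adjusted p between 6.1e-19 and 1.3e-10. Sororin (Cdca5) rose by 0.48 ± 0.065 (adjusted p = 3e-07), securin (Pttg1) by 0.56 ± 0.11 (adjusted p = 9e-05) and separase (Espl1) by 0.16 ± 0.049 (adjusted p = 0.00624). With coding A content and coding length trends removed, Pds5a stood at -0.29 (adjusted p = 8.6e-07) and Pds5b at -0.27 (adjusted p = 0.00023).

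Mau2, the partner of NIPBL in the loader, did not pass the test (43.7 and 47.9 CPM against 43.5 and 43.6 CPM, adjusted p = 0.399), nor did the deacetylase Hdac8 (adjusted p = 0.25) or the boundary factor Ctcf (105 and 104 CPM against 103 and 102 CPM, adjusted p = 0.594). With coding A content and coding length trends removed, Ctcf was higher (0.65, adjusted p = 3.9e-11) and Mau2 lower (-0.20, adjusted p = 0.0175). Ctcf was also higher with GC content and length trends removed (0.13, adjusted p = 0.0223), and Hdac8 was lower without shUSP9X replicate 2 (-0.48, adjusted p = 0.0438). Mau2 stood at 0.544 and 0.657 times the FPKM of Nipbl in shCtrl and at 5.97 and 5.27 times in shUSP9X. Stag1 stood at 0.630 and 0.720 times Stag2 in shCtrl and at 1.86 and 2.11 times in shUSP9X. Nipbl and Stag2 were selected on this comparison, so nothing is read from these shifts. Of the SMC-like genes, Rad50 of the MRN repair complex fell by 2.13 ± 0.066 (adjusted p = 4.9e-20) and Smchd1, a silencer of the inactive X, by 1.78 ± 0.055 (adjusted p = 4.6e-20).

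**Figure D2:**
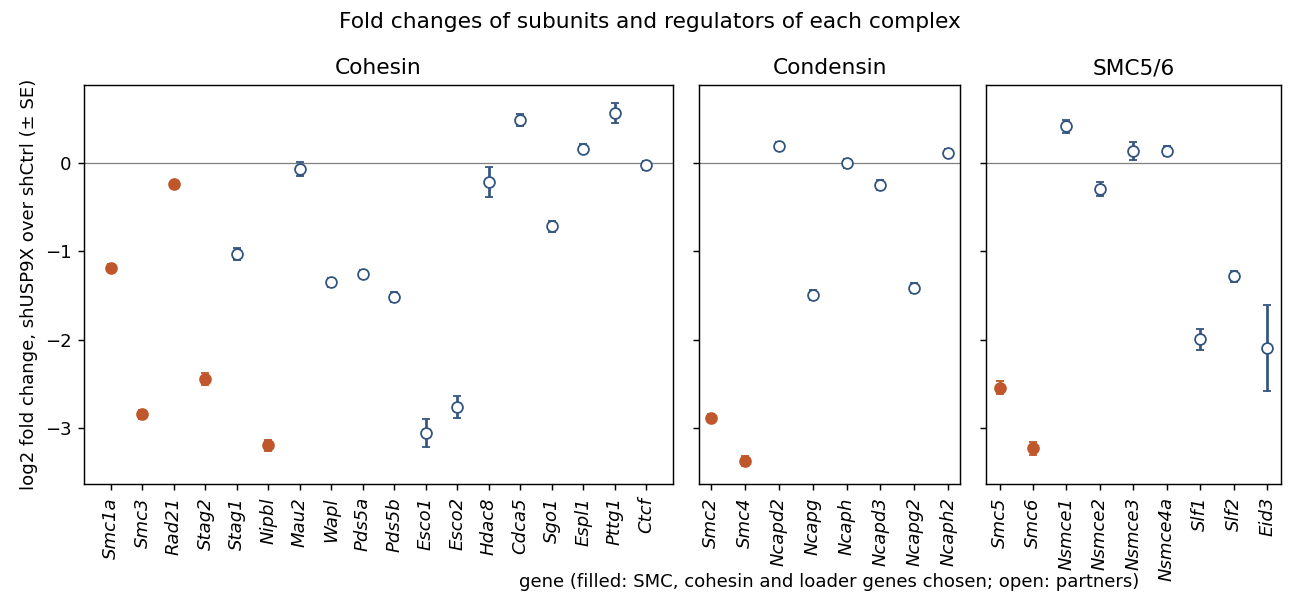
Log2 fold change of shUSP9X over shCtrl with its SE for the subunits and regulators of cohesin, condensin and the SMC5/6 complex. Filled orange points are SMC, cohesin and loader genes among the 10 chosen, and open blue points their partners, which run from -3.05 (Esco1) to 0.56 (Pttg1).

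The plot of the subunits by complex shows that the SMC genes of condensin lay below each of its non-SMC subunits, while in cohesin Rad21 lay near 0 and Esco1 and Esco2 near Smc3 and Nipbl.

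Ki-67 is read as a sign of cycling cells, so genes of mitosis and DNA replication were counted beside it. Of 48 mitotic genes, 22 were lower and 19 higher in the edgeR test (adjusted p under 0.05), and the median of their log2 fold changes was 0.0018. These are 45.8% and 39.6% of the list, against 33.6% and 33.8% of all tested genes. Of the 48, the 22 kinetochore and checkpoint genes had 12 lower and 6 higher, and the 26 other mitotic regulators 10 lower and 13 higher. The kinetochore and checkpoint genes with the lowest values were Cenpf (-4.70), Cenpe (-4.20) and Knl1 (-3.90), and those with the highest were Pmf1 (0.75), Nsl1 (0.72) and Bub3 (0.71), with adjusted p of at most 7.1e-07. Cenpe, a kinesin of the kinetochore, went from 180 and 167 CPM to 9.41 and 9.38 CPM. Among other mitotic regulators the motor Kif11 (-1.74), Hmmr (-1.73) and topoisomerase Top2a (-1.11) were lowest, and the kinase Plk1 (0.69), the anaphase activator Cdc20 (0.58) and Aurka (0.45) highest, all with adjusted p of at most 1.1e-09. With trends on coding A content and coding length removed, Hmmr turned to 0.25 (adjusted p = 7.1e-05) and Top2a to 0.26 (adjusted p = 1.6e-08), and 1 of the 26 mitotic regulators was lower, which was Kif11 (-0.43, adjusted p = 1.1e-08). In that fit 18 of the 26 were higher, which is 69.2% against 35.3% of all genes, while 3.85% were lower against 28.9%, and of the 22 kinetochore and checkpoint genes 10 were lower and 9 higher. With GC content and length trends removed instead, 11 of the 26 regulators were lower and 10 higher, and 10 of the 22 kinetochore and checkpoint genes were lower and 5 higher. Of all genes in that fit, 30.2% were lower and 32.6% higher.

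Of 29 replication genes, 6 were lower and 17 higher, with a median log2 fold change of 0.23. These are 20.7% and 58.6% of the list, against 33.6% and 33.8% of all tested genes. The lowest were Pola1, the catalytic subunit of polymerase alpha (-1.84), Orc4 (-0.96) and Dbf4 (-0.83), and the highest were Mcm5 of the replicative helicase (0.76) and the licensing factors Cdc6 (0.68) and Cdt1 (0.68). Orc4 turned to 0.20 (adjusted p = 0.0921) with GC content and length trends removed and no longer passed with those on coding A content and coding length removed (-0.21, adjusted p = 0.0872), under which Dbf4 stood at 0.02 (adjusted p = 0.682). Mcm5 rose from 207 and 204 CPM to 358 and 339 CPM. Cdk1, the mitotic kinase, rose from 216 and 218 CPM to 245 and 253 CPM (adjusted p = 0.00011), and Pcna, the sliding clamp, from 401 and 372 CPM to 450 and 460 CPM (adjusted p = 6.8e-06). Cdk1 and Pcna were named after their values were seen, so nothing is read from them. In the list that holds Cdk1, 22 of 48 mitotic genes were lower and 19 higher. In that of Pcna, 6 of 29 replication genes were lower and 17 higher. Top2a stood at 2.58 and 2.66 times the FPKM of Mki67 in shCtrl and at 26.9 and 27.0 times in shUSP9X. Mki67 was selected on this comparison, so nothing is read from this shift.

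The 10 genes shared features of sequence. These were no criterion of the choice, but fold change ran with them over all tested genes. Genes selected on this comparison are therefore not independent of these features. Their coding sequences had between 31.08% (Rad21) and 37.97% (Smc4) of A, and 9 of them lay in the tenth of the tested genes with the most A (above 31.8%), with Rad21 in the tenth below. Coding length ran from 1908 nt for Rad21 to 9534 nt for Mki67, of which 6836 nt are 1 exon. The other 8 genes had between 3264 and 8397 nt. GC content of the transcripts ran from 38.1% (Stag2) to 46.9% (Smc1a), and each of the 10 lay below the median of the tested genes.

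Coding A content and fold change were also set side by side among the subunits. Over the 26 partners, Rad50 and Smchd1, which are 28 genes outside the 10, Spearman's rho between the coding A content and the log2 fold change was -0.805, and with coding length it was -0.355. With the 10 chosen genes added, over 38 genes, the values were -0.87 and -0.462. Since the 10 were selected on this same comparison, nothing is read from that second pair of values. Both pairs are descriptions, since the genes were measured in the same 4 libraries and are not independent of each other. Over the 11416 tested genes with a coding sequence the rho was -0.348 for A content and -0.226 for coding length, and for the GC content of the transcript it was 0.441 over 11430 genes. The comparison by coding A content and coding length was made after the values had been seen.

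**Figure D3:**
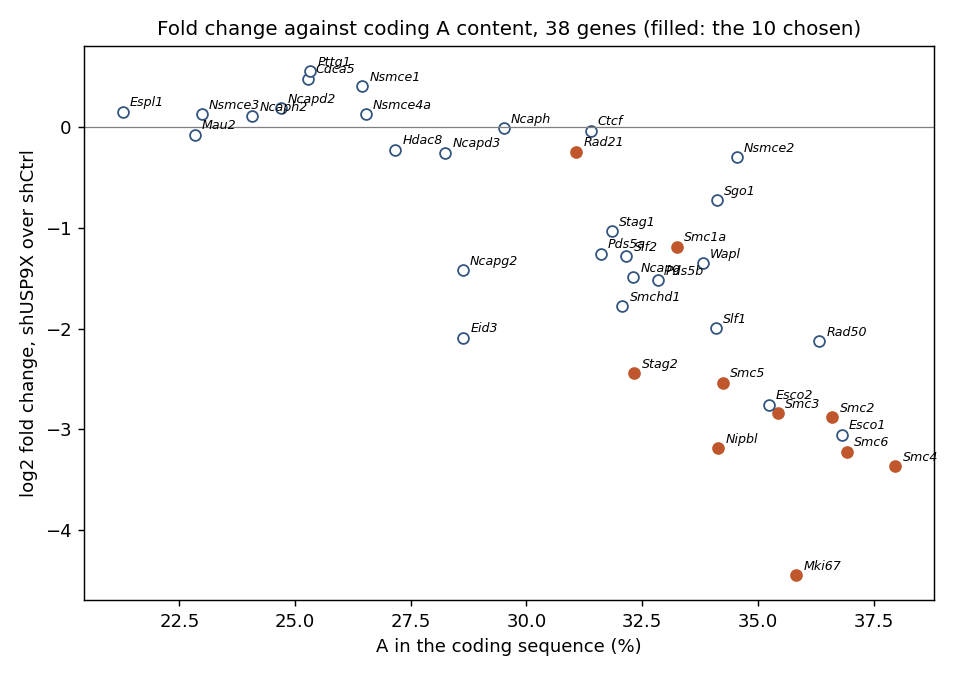
Log2 fold change of shUSP9X over shCtrl against the share of A in the coding sequence (%) for 38 genes, with the 10 chosen genes filled and partners and SMC-like genes open. Genes with the least A, such as Espl1 and Mau2, lie near 0, and genes with the most A, such as Smc4, Smc6 and Esco1, lie at -3.05 or lower.

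In the plot of fold change against coding A content, Ncapg2 and Eid3 lie below the other genes of their A content, and Nsmce2 and Ctcf above. Nsmce2 has 34.54% of A in a coding sequence of 744 nt. Ctcf has 31.39% in 2211 nt, close to Rad21 in both measures, and its log2 fold change was -0.03.

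Both coding length and A content were then used at once, with the tested genes divided into 5 equal classes by each. The class with the most A and the longest coding sequences, with at least 29.7% of A and at least 2517 nt, held 9 of the 10 genes. Its 486 other genes had a median log2 fold change of -1.22, and 440 of them (90.5%) were lower at an adjusted p under 0.05, against the background of 33.6%. The class with the least A and the shortest coding sequences held 528 genes with a median of 0.17, of which 14.0% were lower. Rad21 lay in the class with the most A and the next shorter coding sequences (1647 to 2514 nt), where the 471 other genes had a median of -0.76 and 80.2% were lower.

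Within the class of long A-rich genes the members took different places. Of its 495 genes, 4 had a lower fold change than Mki67, 35 lower than Smc4, 43 lower than Smc6 and 45 lower than Nipbl. Smc2 and Smc3 had 62 and 64 below them, Smc5 had 82 and Stag2 had 88. Smc1a lay in the middle, with 253 genes below it. These places rest on the fold change on which the members were selected, so nothing is read from them.

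**Figure D4:**
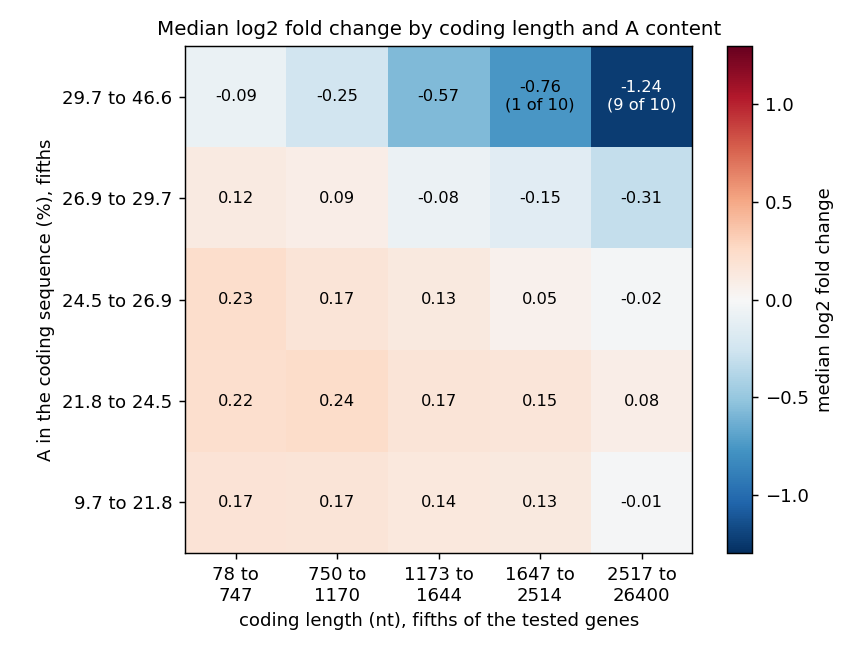
Median log2 fold change of the tested genes in 25 classes, by 5 classes of coding length (x axis, nt) and 5 of the share of A in the coding sequence (y axis, %), with the number of the 10 chosen genes in the classes that hold any. The median was lowest, at -1.24, in the class with the longest and most A-rich coding sequences, which held 9 of the 10.

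The map of medians by length and A content shows that the median fell with length mostly among the genes with much A, from -0.09 in the shortest class to -1.24 in the longest, and from 0.17 to -0.01 among the genes with the least A.

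The fold changes were recomputed with such trends taken out of each library. With GC content and transcript length removed, Mki67 stood at -3.98, Smc4 at -2.58, Smc6 at -2.41, Nipbl at -2.39, Smc3 at -2.27, Smc5 at -2.17, Smc2 at -1.98, Stag2 at -1.33 and Smc1a at -1.01, and Rad21 turned to 0.08. With coding A content and coding length removed instead, Mki67 stood at -2.06, Stag2 at -1.37, Nipbl at -1.32, Smc6 at -1.20, Smc5 at -1.12, Smc3 at -1.10, Smc4 at -0.99 and Smc2 at -0.88, while Smc1a (0.08) and Rad21 (0.31) turned positive. Either step also removes group differences of any origin that run along these features, and the source of the trends was not tested. No reads or RNA integrity values were examined, so library quality was not tested either.

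**Figure D5:**
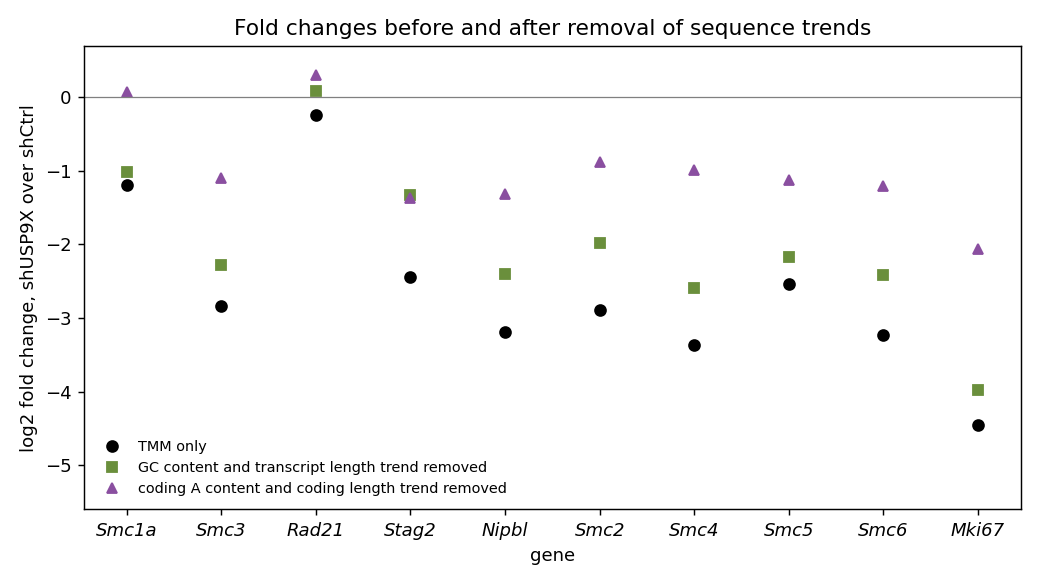
Log2 fold change of shUSP9X over shCtrl of the 10 genes with TMM scaling only (circles), with the trend on GC content and transcript length removed (squares) and with the trend on coding A content and coding length removed (triangles). Mki67 is lowest in all 3, at -4.45, -3.98 and -2.06, and Rad21 is above 0 in the last 2.

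In the plot of fold changes before and after removal of sequence trends, the order of the genes changed, with Stag2 second lowest only in the last series. With coding A content and coding length removed, 10 of the 26 partners were lower and 10 higher, against 28.9% and 35.3% of all genes in that fit. Esco2 (-1.56, adjusted p = 3e-10), Esco1 (-1.24, adjusted p = 3.8e-07) and Ncapg2 (-1.02, adjusted p = 2.6e-13) were still lower. Wapl (0.02, adjusted p = 0.787), Stag1 (-0.05, adjusted p = 0.537) and Rad50 (-0.14, adjusted p = 0.0734) no longer passed, and Sgo1 turned to 0.16 (adjusted p = 0.0345).

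Genes with the profile most like the mean of the 10 were sought by the Euclidean distance of their centred log2 CPM over the 4 libraries. The 5 nearest were Cwf19l2 (distance 0.0553), Zfp72 (0.0647), Upf2 (0.0748), Tasor (0.0766) and Ktn1 (0.0866), with log2 fold changes between -2.78 and -2.61, while the mean profile stood at -2.63. Their coding sequences had between 32.1% and 36.7% of A. Ktn1, which encodes kinectin, went from 118 and 110 CPM to 18.7 and 18.3 CPM, and Upf2, a factor of nonsense-mediated decay, from 50.5 and 51.0 CPM to 8.15 and 8.49 CPM. With so few libraries in only 2 groups, this likeness is mostly one of fold change. Among the 10 themselves Smc5 lay nearest the mean profile (0.109) and Rad21 farthest (2.39).

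The promoters of these genes were read from RefSeq (GRCm38.p6), from 250 bases before to 50 after the start of the gene. Entries matched for 6 of the 10 genes, namely Smc1a, Smc2, Smc3, Smc5, Smc6 and Mki67, and not for Smc4, Rad21, Stag2 and Nipbl. Letters searched on both strands were TTTGAA (the core of the cell cycle element CHR), CCAAT, and the E2F-type runs TTCCCGC and TTGGCGC. The promoters of Mki67, the gene that fell most, Smc2, and Smc1a, the SMC gene that fell least, are shown with matches in capitals.
Mki67, chr7:135716330-135716629, minus strand: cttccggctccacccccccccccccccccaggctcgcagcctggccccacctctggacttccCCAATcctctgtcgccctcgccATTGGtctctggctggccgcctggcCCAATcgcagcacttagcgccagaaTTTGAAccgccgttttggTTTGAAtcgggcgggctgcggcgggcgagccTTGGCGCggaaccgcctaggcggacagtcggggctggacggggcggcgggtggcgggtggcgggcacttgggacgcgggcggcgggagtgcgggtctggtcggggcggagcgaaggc
Smc2, chr4:52438971-52439270, plus strand: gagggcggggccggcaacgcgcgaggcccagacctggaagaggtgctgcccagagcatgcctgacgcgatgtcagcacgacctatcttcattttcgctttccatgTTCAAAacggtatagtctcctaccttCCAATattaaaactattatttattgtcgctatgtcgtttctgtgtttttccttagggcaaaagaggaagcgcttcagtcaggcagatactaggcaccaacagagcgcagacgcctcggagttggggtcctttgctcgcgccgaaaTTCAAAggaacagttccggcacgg
Smc1a, chrX:152016178-152016477, plus strand: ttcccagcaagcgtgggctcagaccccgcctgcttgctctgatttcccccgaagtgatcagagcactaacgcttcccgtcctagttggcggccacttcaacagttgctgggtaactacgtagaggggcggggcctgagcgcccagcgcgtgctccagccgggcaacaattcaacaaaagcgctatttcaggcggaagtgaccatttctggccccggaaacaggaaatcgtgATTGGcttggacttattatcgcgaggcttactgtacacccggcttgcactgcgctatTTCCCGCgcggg
The Mki67 window held TTTGAA at 116 and 98 bases before the start, 3 matches to CCAAT and 1 to TTGGCGC, and no matches overlapped. The Smc2 window held 2 matches to TTTGAA, both on the opposite strand, and 1 to CCAAT. The Smc1a window held 1 match to CCAAT and 1 to TTCCCGC, that of Smc6 1 to TTTGAA, and that of Smc3 none. The RefSeq start of Smc5 lies 1298 bases inside the GENCODE gene, so that its window, which held none, lies within that gene. Of all 32851 promoter windows of the same length, 17.9% held TTTGAA, 37.4% CCAAT, 4.60% TTCCCGC and 2.45% TTGGCGC. The GC content of the other 5 windows ran from 52.7% (Smc2) to 72.7% (Mki67).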

How the data were processed

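Total RNA from ID8 cells was enriched for mRNA with oligo(dT) beads and sequenced by the study. For each gene and library the authors deposited an unnormalized estimated count and an FPKM value, which they scaled for transcript length and library size. The submitters' processing notes name fastp 0.18.0, Bowtie2 2.2.8, HISAT2, StringTie 1.3.1 and RSEM, and the methods give GRCm38 as the genome. Which tool made the counts is not given in the sources used here.

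The test had been planned for whole-number counts. Between 6.39 and 6.69% of the estimated counts were not whole, so they were rounded. They were filtered with filterByExpr, scaled by TMM, and edgeR 4.0.16 (R 4.3.3) gave two-sided quasi-likelihood tests with Benjamini-Hochberg adjustment over 11448 genes and no replicate block. SE values were derived from the quasi-F statistic. Of the genes listed, 7085 were at 0 throughout. The floor was 3 counts per library. Molecular identifiers are not described, and this floor covers counting error only, whereas SE and p-values include the spread between libraries. Libraries of a group differed by more than sampling noise (chi-square per gene of 3.36 and 2.09).

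The members and all lists were chosen with earlier results of these data known. Named genes were the 10 members, Usp9x, every partner, paralog and SMC-like gene, every marker gene, the 3 lowest and 3 highest of each kinetochore, mitotic and replication list, and the 5 genes nearest the members' mean profile. Cdk1 and Pcna were added after their values were seen. Coordinates, lengths and coding sequences are those of 1 representative transcript per gene in GENCODE M21, in which 21973 of 22063 identifiers were found, and promoters are from RefSeq. A marker gene of the lists as first fixed was left out of them and is not reported here.

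Alternatives tried were another tool (DESeq2 1.42.0), 3 other scalings in edgeR (size factors of DESeq2, upper quartile, or library size alone), a looser filter (any count) and a stricter one (no library under 10 counts). FPKM was also analysed by limma-trend (limma 3.58.1) after adding 1 or 0.1 and taking log2, where its mean reached 1. Further fits had the replicate number as a block, an offset for loess trends (span 0.3) on transcript GC content and length fitted per library, both together, or 1 library fewer. An offset for the loess surface on coding A content and coding length was chosen after seeing the data. Procedures were tested on simulated data.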

Additional observations from a re-analysis of the deposited data

How the results depend on the processing

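With 2 libraries against 2, an exact permutation test cannot go below p = 0.333, so the tests rest on the spread that edgeR shares across genes. Rad21 turned positive with the GC content and length offset (0.0837), with that offset and the replicate block (0.0837), and with the offset on coding A content and coding length (0.305), under which Smc1a also turned positive (0.0763). By construction these offsets remove what follows the features, and no further cause was tested. The other 8 members stayed below 0 under all 16 alternatives, at -0.88 or lower.

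The count of partners higher in shUSP9X went from 7 to 4 with limma-trend on log2(FPKM + 1) and to 4 with log2(FPKM + 0.1), and ran from 4 to 6 with each library left out, with 4 without shUSP9X replicate 2. Each of the 5 partners that did not pass was called in at least 1 alternative. The cause was not tested. The offset on coding A content and coding length moved the mitotic genes that were lower from 22 to 11 and those that were higher from 19 to 27, and the replication genes that were lower from 6 to 3. The other counts over all tested genes and over the whole partner, mitotic and replication lists stayed within 1.5 times. Counts of smaller lists moved by more in places. The offset on coding A content and coding length moved the mitotic regulators that were lower from 10 to 1. Over all alternatives 2983 to 4031 genes were lower and 3182 to 4144 higher.

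No pairing by replicate number was seen, as same-numbered libraries deviated with a correlation of -0.0453. Whether such libraries were prepared together is not stated in the sources used here. With the replicate block 3810 genes were lower and 3855 higher, and 14 partners, 22 mitotic and 6 replication genes were lower. Without one library each, the genes lower ran from 3369 to 3718 and the genes higher from 3402 to 3850.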
